A study of Rattus norvegicus with 12 samples.

Results

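The 8 genes described here are the rat urea cycle genes and arginases: Nags, Cps1, Slc25a15, Otc, Ass1, Asl, Arg1 and Arg2. They were taken as every array probe whose gene name in the scanner files is a member, with the older name Ass accepted for Ass1 and a suffix for predicted genes dropped from Nags, which gave 1 probe per member among 35707 gene names on the array. All 8 passed the filter on dim probes, but Arg2 passed only through the dexamethasone groups. Arg2 therefore had to be higher after dexamethasone once it was measured at all, so it is described apart and left out of the counts of the other 7.

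The livers of adrenalectomized Sprague-Dawley rats aged 8 to 10 weeks were compared 6 h after a single intraperitoneal injection. The 4 groups were females given dexamethasone (a synthetic glucocorticoid, 1 mg/kg), females given vehicle (phosphate-buffered saline), males given dexamethasone and males given vehicle. All the females were treated in diestrus, and animals of every group lacked adrenal glands, so the vehicle animals had no adrenal glucocorticoid of their own. Each group had 3 single-colour arrays, and the RNA on an array was a pool of 3 livers, which makes 9 animals in a group. The p-values therefore measure the spread between pools, not between animals. The series asks whether glucocorticoids regulate hepatic genes differently in the sexes.

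The urea cycle turns toxic ammonia into urea and runs in the hepatocytes around the portal vein. In the mitochondrion, carbamoyl phosphate made from ammonia and bicarbonate is joined to ornithine to give citrulline, which leaves for the cytosol, takes up nitrogen from aspartate and is split to arginine. Arginase then releases urea and returns ornithine, which a carrier brings back into the mitochondrion. Glucocorticoids, with glucagon, are textbook inducers of the cycle's enzymes in liver, where amino acids from muscle protein are burnt.

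Every value below rests on the hybridization of liver RNA to a single 60-base probe per gene. The probes of the 5 members on which the results turn most are shown whole in lower case, since the entire probe hybridizes. They belong to Otc, the only member called lower after dexamethasone, to Cps1, whose replicates spread most, to Slc25a15 and Ass1, called higher in both sexes, and to Arg2, detected only after dexamethasone. The genes are annotated in the RefSeq table of assembly GRCr8 at chr9:76063863-76186739 (Cps1), chr16:76334037-76357325 (Slc25a15), chrX:15126358-15202473 (Otc), chr3:35144765-35194632 (Ass1) and chr6:103669001-103694375 (Arg2). Where within its transcript each probe lies was not determined here.
Cps1: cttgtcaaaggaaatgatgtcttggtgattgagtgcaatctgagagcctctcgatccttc
Slc25a15: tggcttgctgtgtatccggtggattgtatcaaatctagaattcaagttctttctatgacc
Otc: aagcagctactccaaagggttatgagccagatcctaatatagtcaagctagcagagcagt
Ass1: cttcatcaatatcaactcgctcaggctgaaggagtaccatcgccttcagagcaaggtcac
Arg2: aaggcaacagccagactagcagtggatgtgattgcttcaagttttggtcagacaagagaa

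Levels are given as the log2 of the scanner's processed signal minus the 75th percentile of that array, so 0 is the level of a fairly bright probe and 1 unit is a doubling. Probes differ in their brightness, so levels are compared between arrays and not between genes. The exception is the summed signal of a marker list, in which the brightest probes weigh most. Between 53.0% and 69.7% of probes stood well above background on an array. The 12 arrays came from 5 slides, and slide 5, which held replicate 3 of all 4 groups, was dimmer (53.0% to 61.8%) than the others (62.7% to 69.7%). Slide 1 held male dexamethasone 1 and male vehicle 2, slide 2 female vehicle 1 and 2 and male dexamethasone 2. Slide 3 held male vehicle 1, and slide 4 female dexamethasone 1 and 2. Outside slide 5 no slide held both treatments of females or both sexes of a treatment, so those differences cannot be told from slide there. The reported fit left slide out, and with slide as a random block the correlation within slides was 0.512. Slide and scan cannot be told apart. A gene was called where limma's test gave a Benjamini-Hochberg adjusted p under 0.05 over all 24298 genes measured, and the ± after a log2 difference is its standard error with 3 arrays per group.

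Dexamethasone moved most of the urea cycle upward in both sexes. Of the 7 genes measured in every group, 5 rose in females (Nags, Cps1, Slc25a15, Ass1 and Arg1) and none fell, and Otc and Asl were not called. Of all genes measured in females, 24.4% were called, 11.7% higher and 12.6% lower. In males 4 rose (Slc25a15, Ass1, Asl and Arg1), Otc fell, and Nags and Cps1 were not called, beside 20.1% of all genes, 9.34% higher and 10.8% lower. The median log2 difference of the 7 genes was 1.28 in females and 1.25 in males, against -0.08 and 0.01 over all genes. Slc25a15, Ass1 and Arg1 were called in both sexes. Arg2 was well above background after dexamethasone and not after vehicle in either sex. In bulk liver RNA, more transcript per cell and more cells that carry it cannot be told apart.

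**Figure D1:**
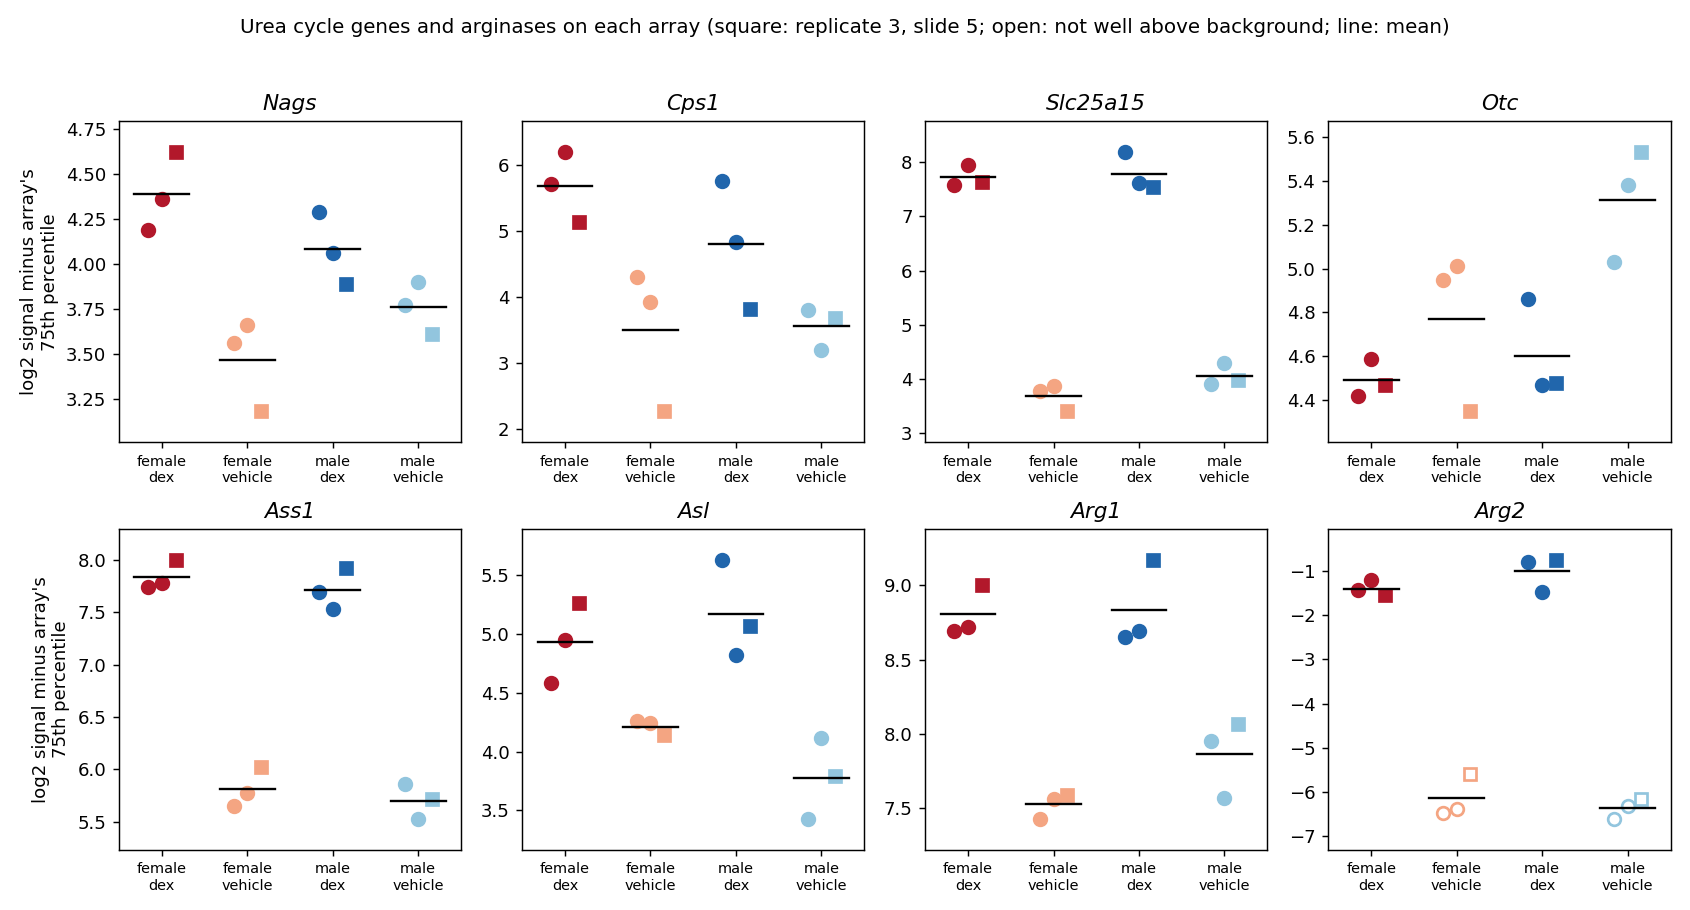
Level of each of the 8 genes on each of the 12 arrays, as log2 signal minus the array's 75th percentile, in females given dexamethasone or vehicle and males given dexamethasone or vehicle. Lines are group means of 3 arrays, squares are replicate 3 on slide 5, and open symbols are not well above background. Dexamethasone arrays lie far above vehicle arrays for Slc25a15, Ass1 and Arg2 in both sexes, while the means of Otc lie lower after dexamethasone.

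The mitochondrial entry to the cycle begins with Nags, N-acetylglutamate synthase, whose product switches on carbamoyl phosphate synthetase. Nags levels were 4.19, 4.36 and 4.62 in females after dexamethasone and 3.56, 3.66 and 3.18 after vehicle. In males they were 4.29, 4.06 and 3.89 after dexamethasone and 3.77, 3.90 and 3.61 after vehicle. The female groups were apart, whereas the lowest male dexamethasone array lay just below the highest male vehicle array. Nags rose 1.90-fold in females (0.92 ± 0.19, limma adjusted p = 0.00575) and had a log2 difference of 0.32 ± 0.19 in males (adjusted p = 0.296). Within slide 5 the difference was 1.44 in females and 0.28 in males.

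Cps1 encodes carbamoyl phosphate synthetase 1, which fixes ammonia and sets the pace of the cycle. Its levels were 5.71, 6.19 and 5.14 in females after dexamethasone and 4.31, 3.93 and 2.27 after vehicle. In males they were 5.76, 4.84 and 3.82 after dexamethasone and 3.80, 3.20 and 3.68 after vehicle. The arrays of the treatments did not overlap in either sex, but the male dexamethasone arrays spread over almost 2 log2 units and their lowest lay just above the highest male vehicle array. Cps1 rose 4.52-fold in females (2.18 ± 0.58, limma adjusted p = 0.0206). The male difference was 1.25 ± 0.58 with an interval of -0.03 to 2.53 (adjusted p = 0.168).

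Single arrays and slides moved the size of the Cps1 log2 difference more than that of any other member, although the male call of Otc was lost in more settings. The female call was lost without female dexamethasone 1 (adjusted p = 0.0588), without female dexamethasone 2 (1.92, adjusted p = 0.0802) and without female vehicle 3 (1.56, adjusted p = 0.0514), and with slide as a fixed block (2.43, adjusted p = 0.100). Without the 4 arrays of slide 5 the male difference was called (1.80, adjusted p = 0.0266) and the female difference was 1.83 (adjusted p = 0.0177). Within slide 5 it was 2.87 in females and 0.15 in males, and within slide 1, which held 1 male array of each treatment, 2.56.

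Slc25a15 encodes the ornithine carrier of the inner mitochondrial membrane, which brings ornithine in and lets citrulline out. It had levels of 7.58, 7.94 and 7.64 in females after dexamethasone and 3.79, 3.87 and 3.41 after vehicle. Male levels were 8.18, 7.62 and 7.54 after dexamethasone and 3.91, 4.29 and 3.98 after vehicle. Every dexamethasone array lay more than 3 log2 units above every vehicle array. The carrier rose 16.4-fold in females (4.03 ± 0.22, limma adjusted p = 3.74e-06) and 13.2-fold in males (3.72 ± 0.22, adjusted p = 4.87e-06). Within slide 5 the difference was 4.24 in females and 3.56 in males, and within slide 1 it was 3.89 in males.

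Otc, ornithine transcarbamylase, joins carbamoyl phosphate to ornithine and is encoded on the X chromosome. Its levels were 4.42, 4.59 and 4.47 in females after dexamethasone and 4.95, 5.01 and 4.35 after vehicle. Male levels were 4.86, 4.47 and 4.48 after dexamethasone and 5.03, 5.38 and 5.53 after vehicle. The male groups were narrowly apart, and in females vehicle array 3 lay below all dexamethasone arrays. Otc fell by 0.71 ± 0.22 on the log2 scale in males (1.64-fold lower, limma adjusted p = 0.0427), and its female difference was -0.28 ± 0.22 (adjusted p = 0.384).

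The fall of Otc in males stood close to the threshold. It was lost when male vehicle 3 (adjusted p = 0.136), male dexamethasone 2 (0.124), male dexamethasone 3 (0.123) or male vehicle 2 (0.109) was left out, and also without female dexamethasone 1 (0.0615), 2 (0.0613) or 3 (0.0546) or female vehicle 1 (0.0540), which enter through the shared estimate of the spread. The call was also lost with normexp background correction (0.0615), with no filter on dim probes (0.0860), in a fit of the male arrays alone (0.0881) and without slide 5 (-0.54, adjusted p = 0.135). Within slide 5 the difference was 0.12 in females and -1.06 in males, and within slide 1 it was -0.52 in males.

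In the cytosol, Ass1 encodes argininosuccinate synthase, which condenses citrulline with aspartate. Ass1 levels were 7.74, 7.78 and 8.00 in females after dexamethasone and 5.65, 5.78 and 6.02 after vehicle. They were 7.69, 7.53 and 7.92 in males after dexamethasone and 5.86, 5.53 and 5.72 after vehicle. The arrays of a group lay close together, and the treatments were far apart in both sexes. Ass1 rose by nearly equal amounts in the sexes, 4.06-fold in females (2.02 ± 0.17) and 4.02-fold in males (2.01 ± 0.17), each with a limma adjusted p of 3.73e-05. Within slide 5 the difference was 1.98 in females and 2.20 in males.

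Asl, argininosuccinate lyase, releases arginine and fumarate in the next step. Asl levels were 4.58, 4.95 and 5.26 in females after dexamethasone and 4.26, 4.24 and 4.14 after vehicle. In males they were 5.63, 4.82 and 5.07 after dexamethasone and 3.43, 4.12 and 3.79 after vehicle. The treatments did not overlap in either sex, with a narrower gap in females. Asl rose 2.63-fold in males (1.39 ± 0.26, limma adjusted p = 0.00362). The female difference of 0.72 ± 0.26 was not called (adjusted p = 0.0681), and it was called without male dexamethasone 1 (adjusted p = 0.0482), with slide as a random block (0.80, adjusted p = 0.0349) and with eBayes' trend and robust options (adjusted p = 0.0431). Within slide 5 it was 1.12 in females and 1.28 in males.

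Arg1 encodes the cytosolic arginase of liver, the enzyme that releases urea. Arg1 levels were 8.69, 8.72 and 9.00 in females after dexamethasone and 7.43, 7.56 and 7.59 after vehicle. In males they were 8.65, 8.69 and 9.17 after dexamethasone and 7.95, 7.57 and 8.07 after vehicle. All dexamethasone arrays lay above all vehicle arrays. Arg1 rose 2.43-fold in females (1.28 ± 0.19, limma adjusted p = 0.00114) and 1.97-fold in males (0.98 ± 0.19, adjusted p = 0.00543). Within slide 5 the difference was 1.41 in females and 1.10 in males.

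Arg2 encodes the mitochondrial arginase, which is best known from tissues other than liver, such as kidney, where it makes ornithine from arginine. Its probe was well above background on all 6 dexamethasone arrays and on none of the 6 vehicle arrays. Levels were -1.44, -1.21 and -1.55 in females after dexamethasone, and the vehicle signals, not well above background, were -6.46, -6.37 and -5.59. In males the levels were -0.79, -1.47 and -0.75 after dexamethasone, and the vehicle signals were -6.60, -6.32 and -6.15. The dexamethasone arrays were several log2 units above the vehicle signals in both sexes.

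Only a lower bound of the fold can be given for Arg2, set against the dimmest signal well above background on each vehicle array. With the scanner's own background subtraction, Arg2 was at least 6.56-fold higher in females and at least 12.5-fold higher in males. No test is given, since the probe passed the filter through the dexamethasone groups alone. These bounds do not hold under normexp background correction with its offset of 50, which gave log2 differences of 1.24 in females and 1.60 in males, so the size for Arg2 depends on how background was handled. Another probe, described in the files as arginase-2 but carrying no member's name, was not well above background on any of the 12 arrays (-6.68 to -5.33), and was looked up after the values of Arg2 were seen. Kidney markers, of which 3 of 5 were measured, had none called in either sex, and their summed signal ran from 1.57 to 1.97 in females after dexamethasone, 1.48 to 2.38 in females after vehicle, 1.68 to 2.48 in males after dexamethasone and 1.49 to 2.03 in males after vehicle, in multiples of the 75th percentile. That sum rests mostly on Aqp2, whose mean was 0.77 in females after dexamethasone, against -5.98 for Slc12a1 and -6.05 for Slc34a1. Only 1 of the 3 kidney markers was well above background on those arrays. The part of kidney cells in the Arg2 result was not tested.

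**Figure D2:**
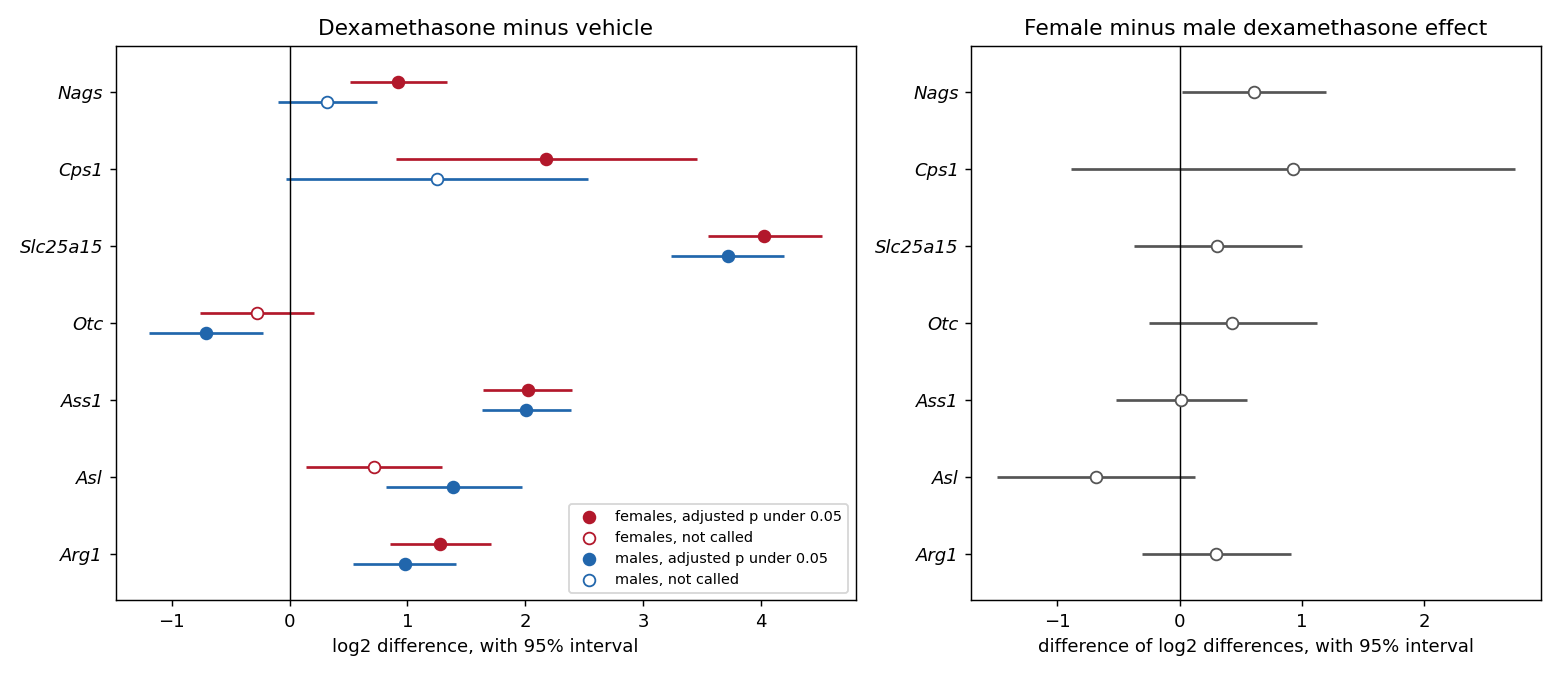
Left, log2 difference of dexamethasone minus vehicle in females and males, with 95% intervals and filled points for adjusted p under 0.05. Right, the female minus the male difference with its 95% interval. Slc25a15 lies farthest from 0 in both sexes, Otc lies below 0 in both, and no difference between the sexes was called. Arg2, not well above background after vehicle, is not drawn.

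The comparison of the sexes is the series' own question, and none of the 7 genes measured in every group was called for it. The female minus the male dexamethasone effect was called for 0 of 7 (limma), beside 0.0288% of all genes, which is 7 genes. At an unadjusted p under 0.05 it held for 1 member and 2433 of all genes. That member was Nags, with a difference of 0.61 ± 0.27 (interval 0.02 to 1.20, limma unadjusted p = 0.0451, adjusted p = 0.493). The interval was -0.52 to 0.55 for Ass1 around an estimate of 0.01, which changed sign between settings. For Cps1 it was -0.89 to 2.74 around 0.93. The estimates of the other genes were -0.68 (interval -1.49 to 0.13) for Asl, 0.43 (-0.25 to 1.12) for Otc, 0.31 (-0.37 to 1.00) for Slc25a15 and 0.30 (-0.31 to 0.91) for Arg1. Asl and Otc, called in males alone, and Nags and Cps1, called in females alone, were thus not shown to respond differently in the sexes.

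Levels did not differ detectably between the sexes under either treatment. After dexamethasone 0 of 8 were called, Arg2 included, between females and males, beside 2.31% of all genes, and 0 members had an unadjusted p under 0.05, as 3788 of all genes did. After vehicle 0 of 7 were called, beside 1.71% of all genes, with 1 member and 2444 of all genes at an unadjusted p under 0.05. That member was Otc, whose mean was 4.77 ± 0.36 in vehicle females and 5.31 ± 0.26 in vehicle males (SD, n = 3 each, difference -0.54 ± 0.22, unadjusted p = 0.0312 and adjusted p = 0.404 from limma's fit across all genes). After dexamethasone the Otc means were 4.49 ± 0.09 in females and 4.60 ± 0.22 in males (SD, n = 3 each). The widest sex difference after dexamethasone was that of Cps1, 0.87 with an interval of -0.41 to 2.15.

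Across the 12 arrays, Otc ran against the other members, which varied together. Ass1 and Slc25a15 had a Pearson correlation of 0.97 and Ass1 and Arg1 of 0.95. Cps1 was less close to the others, at 0.84 with Nags and 0.64 with Arg1. Otc had negative values with every other member, the strongest -0.71 with Ass1 and the weakest -0.28 with Nags. The 12 points fall into dexamethasone and vehicle arrays and share their slides, so these values describe the groups and are given without a test.

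The genes with a symbol whose pattern over the 12 arrays came closest to each member, among 12028 compared, were for the most part not enzymes of nitrogen metabolism. Ass1 was closest to Map1lc3b, which encodes the autophagy protein LC3B (r = 0.996), and to Pcyt1a, which encodes an enzyme of phosphatidylcholine synthesis (r = 0.992). Slc25a15 was closest to Gnpat, which encodes a peroxisomal acyltransferase of ether lipid synthesis (r = 0.996), and Cdc37l1 (r = 0.995). Arg2, with vehicle signals not well above background, was closest to Homer3 and Pptc7 (r = 0.993 each), and Arg1 to Timm8a1, a mitochondrial import protein, and Klf9, a glucocorticoid-responsive transcription factor (r = 0.989 each). Nags was closest to Fggy (r = 0.975) and Rcl1 (r = 0.967), Cps1 to Dnajc30 (r = 0.949) and Fut8 (r = 0.945), and Asl to Snu13 (r = 0.947) and Sart1 (r = 0.939). Otc was closest to Gsr, which encodes glutathione reductase (r = 0.948), and Slc25a51, which encodes a mitochondrial NAD carrier (r = 0.937). The same treatment groups lie behind all these correlations, and they say nothing of shared control.

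The promoter windows of 6 members, 250 bases before and 50 after the start site in RefSeq's GRCr8 table, were searched on both strands for 5 motifs. The windows of Ass1 and Slc25a15 are shown as those of 2 of the genes that rose most. Arg1 and Arg2 have no window there. Capitals mark the only match found in any of the 6, the letters TATAAA on the opposite strand of the Ass1 window, beginning at -60 from the start site. The Ass1 window lies at chr3:35149480-35149779 and that of Slc25a15 at chr16:76336620-76336919, both on the plus strand and both inside the annotated span of their gene, so each belongs to a start site downstream of the first.
Ass1: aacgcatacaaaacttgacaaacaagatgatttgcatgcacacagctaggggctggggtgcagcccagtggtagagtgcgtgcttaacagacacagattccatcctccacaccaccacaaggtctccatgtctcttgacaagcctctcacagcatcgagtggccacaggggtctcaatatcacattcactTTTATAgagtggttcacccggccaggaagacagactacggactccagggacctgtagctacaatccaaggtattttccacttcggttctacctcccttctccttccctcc
Slc25a15: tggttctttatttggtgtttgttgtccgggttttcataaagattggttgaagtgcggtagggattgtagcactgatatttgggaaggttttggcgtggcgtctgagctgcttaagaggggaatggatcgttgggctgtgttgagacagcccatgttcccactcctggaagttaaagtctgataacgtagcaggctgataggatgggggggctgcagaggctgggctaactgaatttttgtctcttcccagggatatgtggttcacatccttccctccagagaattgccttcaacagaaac

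Of 33469 promoter windows in the table, 14.2% held TATAAA on either strand. The other motifs were AGAACA (20.7% of windows), which is 1 arm of a glucocorticoid response element, the full element of AGAACA and TGTTCT with 3 bases between (0.0149%), the cAMP element TGACGTCA (1.83%) and the C/EBP site TTGCGCAA (0.17%). AGAACA also lies inside the full element. None of these 4 was in any of the 6 windows. The absence of these letters in 300 bases says nothing about whether a factor binds there or elsewhere.

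The genes that feed and drain the cycle moved in both directions. They were listed as 15 genes of ammonia, aspartate and bicarbonate supply (13 measured), 30 of the arginine and ornithine branch routes (27 measured) and 14 regulators (14 measured). In females 14 of the 54 measured rose, 9 fell and 31 were not called, and in males 16 rose, 10 fell and 28 were not called. Over all genes the shares were 11.7% higher and 12.6% lower in females and 9.34% higher and 10.8% lower in males, against which the counts of each list and of the markers are to be read. Their median log2 difference was 0.04 in females and 0.19 in males. None of the 54 was called for a difference of the effect between the sexes (limma).

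Of the supply genes, 2 rose and 3 fell of 13 in females, and 3 rose and 3 fell in males. Got1, the cytosolic aspartate aminotransferase that makes aspartate, had levels of 6.68, 6.91 and 6.71 in females after dexamethasone and 3.77, 3.55 and 3.63 after vehicle. Male levels were 7.77 and 7.29 after dexamethasone, where the spot of array 2 was flagged as an outlier and left out, and 3.82, 4.03 and 3.97 after vehicle. Got1 rose 8.67-fold in females (3.12 ± 0.17) and 12.0-fold in males (3.59 ± 0.19). Slc25a22, a mitochondrial glutamate carrier, rose in both sexes (0.98 ± 0.16 in females and 1.18 ± 0.18 in males, with 2 male vehicle arrays).

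Glul, the glutamine synthetase of the hepatocytes around the central vein, rose in males (1.34 ± 0.31, adjusted p = 0.0117), and its female difference of 0.91 ± 0.31 was not called (adjusted p = 0.0571). The female difference was called without male dexamethasone 3 (adjusted p = 0.0253), without female dexamethasone 3 (1.19, adjusted p = 0.0219), and by another Glul probe of similar brightness (0.81, adjusted p = 0.0415). Gls2, the liver glutaminase, which frees ammonia near the portal vein, was not called (-0.26 ± 0.24 in females and 0.05 ± 0.24 in males, the male value changing sign between settings). Genes that fell in both sexes were Aqp9, an aquaglyceroporin (-0.82 ± 0.25 in females and -1.18 ± 0.25 in males), Slc38a3, a glutamine transporter (-0.90 ± 0.22 and -1.01 ± 0.22), and Slc25a12, an aspartate and glutamate carrier (-0.59 ± 0.18 and -0.69 ± 0.18), the female value first in each. A dimmer second probe of Slc25a12 gave -0.29 in females and -0.36 in males and was not called. Slc25a13 and Slc38a5, also listed as supply genes, were not measured, so these values cover the supply of the cycle only in part.

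Of the 27 branch route genes, 9 were called higher, 2 lower and 16 not called in each sex, with Azin2, whose probes disagree, among the 9 in males. Odc1, ornithine decarboxylase, which draws ornithine into polyamines, had levels of 4.86, 5.12 and 4.46 in females after dexamethasone and 2.30, 2.42 and 2.76 after vehicle. In males they were 5.74, 5.49 and 5.83 after dexamethasone and 2.18, 2.29 and 2.32 after vehicle. Odc1 rose 4.99-fold in females (2.32 ± 0.20) and 10.7-fold in males (3.42 ± 0.20), and the difference of the effects, -1.10 ± 0.28, was not called (adjusted p = 0.259). A second Odc1 probe, with a mean level of 3.04 against 3.81, gave log2 differences of 3.25 in females and 3.66 in males. The size of the female rise, and with it the gap between the sexes, thus depended on the probe. Amd1, which makes the aminopropyl donor of polyamine synthesis, rose 5.14-fold in females (2.36 ± 0.26) and 7.91-fold in males (2.98 ± 0.26). Slc25a29, a mitochondrial carrier of arginine and other basic amino acids, rose 7.14-fold in females (2.84 ± 0.28) and 10.8-fold in males (3.44 ± 0.28).

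Slc7a7, a subunit of the basic amino acid transporter y+L, fell in both sexes (-3.13 ± 0.57 in females and -2.51 ± 0.57 in males, adjusted p = 0.00315 and 0.0110), and 1 male dexamethasone array was not well above background. Aldh18a1, which starts proline and ornithine synthesis from glutamate, fell in males (-2.29 ± 0.50), and its female difference of -1.42 ± 0.50 was not called (adjusted p = 0.0617), although it was without male vehicle 3 (adjusted p = 0.00733). Azin2, an antizyme inhibitor, was called in males (2.09 ± 0.64, adjusted p = 0.0425) and had 1.81 ± 0.64 in females (adjusted p = 0.0631). Its other probe showed -0.37 in females and 0.02 in males. Quantile normalization gave -0.19 and 0.06, but the brighter probe was picked anew there and may be that other probe. The mean levels of the probes were close (-2.95 and -3.02). No direction is given for Azin2. Oat, ornithine aminotransferase, was not called (-0.14 ± 0.30 in females and -0.25 ± 0.30 in males), with a sign that changed between settings in each sex.

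Among the 14 regulators 3 rose and 4 fell in females, and 4 rose and 5 fell in males. Nr3c1, the glucocorticoid receptor gene, fell in both sexes (-1.14 ± 0.17 in females and -1.30 ± 0.17 in males). Tsc22d3, a classical glucocorticoid-induced gene, rose 7.16-fold in females (2.84 ± 0.24) and 9.20-fold in males (3.20 ± 0.24). Foxa2, a liver forkhead factor, fell (-2.08 ± 0.35 in females and -2.67 ± 0.35 in males) and Foxo1, another forkhead factor, rose (1.11 ± 0.19 and 0.92 ± 0.19). Sirt3, a mitochondrial deacetylase, fell (-1.06 ± 0.14 in females and -0.61 ± 0.16 in males, with 2 male vehicle arrays).

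Cebpb and Klf15 were called in males alone. Cebpb, a C/EBP factor of the urea cycle genes, rose by 1.02 ± 0.22 in males (adjusted p = 0.00902) and had 0.19 ± 0.22 in females (adjusted p = 0.576). The difference of the effects, -0.83 ± 0.32, was not called (adjusted p = 0.443), but its level after dexamethasone was lower in females than in males (2.46 against 3.59, difference -1.14 ± 0.22, adjusted p = 0.0266). The other listed C/EBP factor, Cebpa, added after its values were seen, was apart in females. Its female levels were 2.37, 2.46 and 2.32 after dexamethasone and 1.51, 1.78 and 1.08 after vehicle. In males the Cebpa levels overlapped, at 2.25, 1.81 and 1.70 after dexamethasone and 1.75, 1.97 and 1.74 after vehicle. Klf15, a factor of amino acid breakdown, rose by 1.53 ± 0.23 in males and had 0.58 ± 0.23 in females (adjusted p = 0.0965), with a difference of the effects of -0.95 ± 0.33 (adjusted p = 0.397). Genes also called between females and males after dexamethasone, named after their values were seen, included Car5b, a mitochondrial carbonic anhydrase, and Ddah1 (-1.43 ± 0.24), which degrades methylated arginines. Ddah1 was also called after vehicle (-1.15 ± 0.24). Car5b was well above background on 1 of 3 female dexamethasone arrays (-4.28, with signals of -4.51 and -4.53 on the others), against -2.83, -2.48 and -2.73 in males after dexamethasone. After vehicle it was not well above background on any female array and was at least 2.90-fold lower in females than in males. No test is given for this, since the probe passed the filter through the male arrays. The call of Car5b after dexamethasone has the same limit.

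Leaving out single arrays ended several of the calls nearest the threshold. In females Aqp9 was lost without female dexamethasone 1 (adjusted p = 0.0808), 2 (0.104) or 3 (0.0771), female vehicle 2 (0.0658) or 3 (0.0891), male dexamethasone 2 (0.0510) or male vehicle 2 (0.0504). Slc25a12 was lost in females without female dexamethasone 1 (0.100), 2 (0.0847) or 3 (0.0803), female vehicle 1 (0.103) or 3 (0.0888), male dexamethasone 2 (0.0513) or male vehicle 2 (0.0506). In males Slc25a12 was lost without male dexamethasone 3 (0.0735) or male vehicle 1 (0.0744) or 2 (0.0662). Slc38a3 was lost in females without female dexamethasone 1 (0.0558) or female vehicle 1 (0.0511), and Sirt3 in males without male dexamethasone 1 (0.0712) or male vehicle 2 (0.0600) or 3 (0.134). The male call of Azin2 was lost without any of 8 arrays, with adjusted p-values of 0.0567 to 0.144, and its female difference was called without male vehicle 3 (0.0494) or female vehicle 2 (0.0402).

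**Figure D3:**
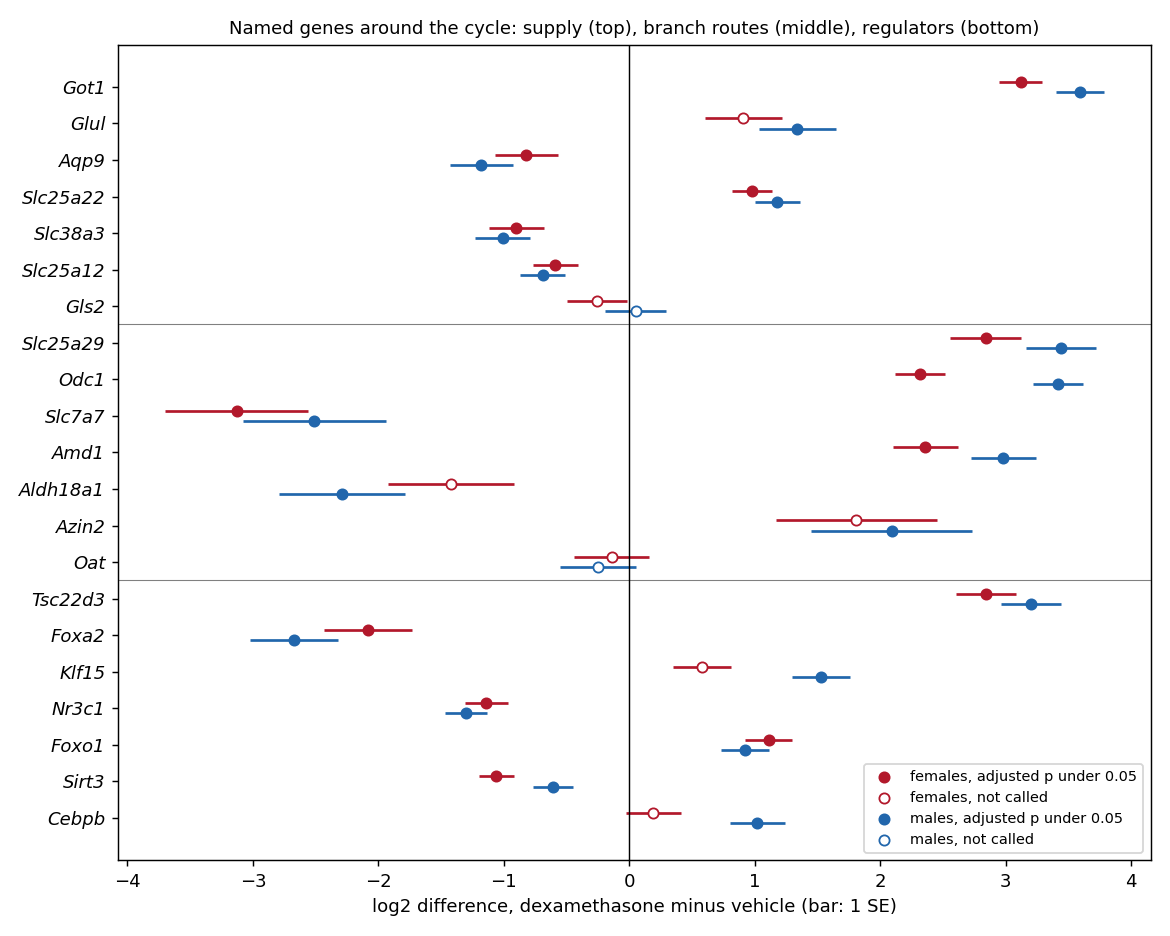
Log2 difference of dexamethasone minus vehicle, with bars of 1 standard error, for the named genes of supply (top), branch routes (middle) and regulation (bottom), in females and males. Filled points passed an adjusted p of 0.05. Got1, Slc25a29, Odc1, Amd1 and Tsc22d3 lie above 2 in both sexes and Slc7a7 and Foxa2 below -2, while Gls2 and Oat lie near 0.

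The tissue carried the markers of liver. All 8 hepatocyte markers (Alb, Ttr, Apoa1, Apoc3, Serpina1, Fgb, Tf and Ahsg) were well above background on all 12 arrays, and none was called after dexamethasone. Of 8 periportal markers, whose cells hold most of the cycle, 1 rose and 1 fell in females and 1 rose and 2 fell in males. Their summed signal ran from 240 to 336 in females after dexamethasone and 287 to 365 after vehicle, and from 164 to 222 in males after dexamethasone and 225 to 274 after vehicle. Of 8 pericentral markers, 0 rose and 3 fell in females and 1 rose and 4 fell in males, with sums of 259 to 311 in females after dexamethasone and 336 to 368 after vehicle, and 183 to 248 in males after dexamethasone and 243 to 468 after vehicle.

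Some markers of other cell types were lower after dexamethasone. The neutrophil markers S100a8 and S100a9 fell in both sexes, 2 of 3 measured, while 4 of the 7 listed (Mpo, Elane, Ngp and Camp) were not measured. The summed signal of the 3 was 0.100 to 0.142 in females after dexamethasone and 0.561 to 2.46 after vehicle, and 0.0919 to 0.240 in males after dexamethasone and 0.467 to 0.825 after vehicle. On an array, 0 to 2 of the 3 were well above background after dexamethasone and 2 to 3 after vehicle. The sums after dexamethasone thus hold signal near background. S100a9 was not well above background on any male dexamethasone array and was at least 5.06-fold lower there than after vehicle. Of 8 macrophage markers, Aif1 fell in each sex. Macrophage sums ran from 26.4 to 60.9 in females after dexamethasone and 50.9 to 86.1 after vehicle, and from 30.8 to 62.0 in males after dexamethasone and 48.4 to 70.9 after vehicle. They rest mostly on Clec4f, which was not called in either sex (mean 5.65 in vehicle females, against 3.09 for Aif1). Endothelial sums, over 5 markers of which Lyve1 rose in both sexes and Kdr fell in females, ran from 9.76 to 24.5 in females after dexamethasone and 41.6 to 68.1 after vehicle, and from 22.1 to 30.6 in males after dexamethasone and 33.9 to 47.2 after vehicle. After vehicle these sums rest mostly on Kdr (mean 5.67 in females, against 1.52 for Lyve1). Among bile duct markers (6 measured) Krt7 fell in females (-1.65, adjusted p = 0.00339), with sums of 1.31 to 1.87 in females after dexamethasone and 1.68 to 3.06 after vehicle, and 1.76 to 2.65 in males after dexamethasone and 3.15 to 4.66 after vehicle. Among erythroid markers (4 of 5 measured) Ahsp fell in females (-0.98, adjusted p = 0.0265), with sums of 7.90 to 17.5 in females after dexamethasone and 12.4 to 24.3 after vehicle, and 14.5 to 21.4 in males after dexamethasone and 18.8 to 25.5 after vehicle. None of either list was called in males. The part of these cells in the results for the cycle genes was not tested.

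**Figure D4:**
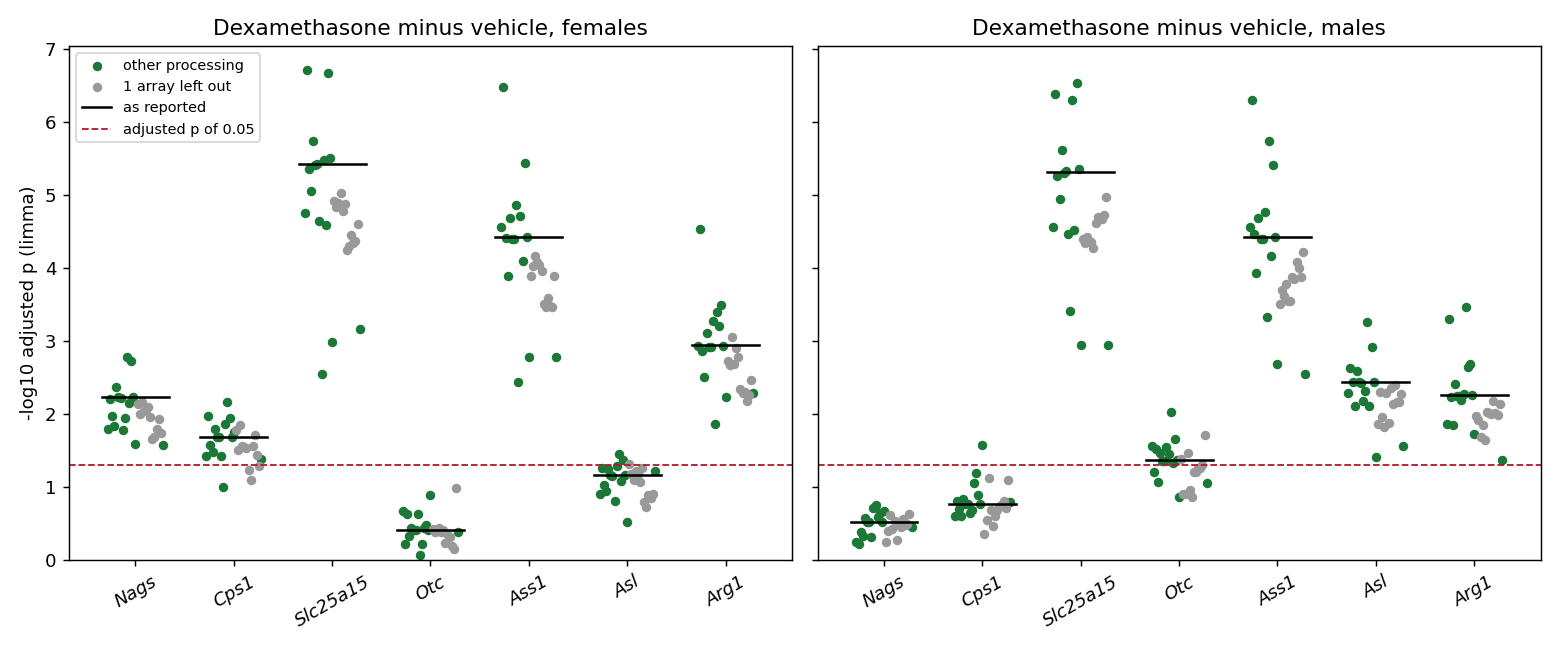
Adjusted p of dexamethasone minus vehicle in females and males, as -log10, for each of the 7 genes measured in every group as reported (line), under other processing (green) and with 1 array left out (grey). The dashed line is an adjusted p of 0.05. Slc25a15, Ass1 and Arg1 stay above it in both sexes under every setting shown, and Otc in males, Cps1 in females and Asl in females have settings on either side.

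Under 27 alternative settings with a test, 12 of which left out a single array, Slc25a15, Ass1 and Arg1 were called in all 27 in both sexes, as the plot of adjusted p by setting shows. Asl was called in all 27 in males and in 3 in females, and Nags in all 27 in females and in 0 in males. Cps1 was called in 23 in females and 1 in males, and Otc in 15 in males and 0 in females. Over these settings the log2 difference of Slc25a15 ran from 3.89 to 4.14 in females and 3.52 to 3.84 in males, and that of Ass1 from 1.88 to 2.14 in females and 1.83 to 2.17 in males.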

How the data were processed

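Liver RNA was hybridized to Agilent whole-genome rat arrays. Spot intensities were deposited as processed signals made by Agilent Feature Extraction 9.1.3.1, per the file headers. A deposited value table holds log10 values of the authors, whose scaling is not given in the sources used here, and served only as an alternative. From the intensities, log2 of the processed signal minus each array's 75th percentile was computed, without control spots and with 211 outlier-flagged spots set missing. A probe was kept if 3 or more of the 12 arrays showed it well above background and every group had 2 or more usable spots, and the brightest kept probe stood for its gene, which left 24298 genes. limma 3.58.1 in R 4.3.3 fitted the 4 group means over all 12 arrays (8 residual degrees of freedom), with Benjamini-Hochberg adjustment over all genes and calls at 0.05. The fit was tested on simulated data whose noise was independent between arrays. That simulation held no slide effect, so it cannot show how slides bear on the p-values. Intervals are 95%. The number of arrays limits the precision. Symbols were updated through RefSeq tables (GRCr8).

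The 8 genes, the pathway and marker lists and the rule for naming were chosen with earlier results of these data known. Of each pathway list, up to 6 called genes with the largest change in either sex were named, plus Glul, Oat, Odc1, Got1, Gls2, Nr3c1 and Cebpb, and for each member the 2 genes with the highest Pearson correlation. Same-numbered arrays were not paired. Alternatives covered normalization, background, the dim-probe filter, probe choice, slide and replicate blocks, and leaving out arrays. The result of 1 pathway gene is not reported here.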

Additional observations from a re-analysis of the deposited data

How the results depend on the processing

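Under the alternatives with a test, 5 to 7 members were called in females and 5 to 6 in males, Arg2 included. Arg2 was in each of these counts, and it had to be higher once measured, so they hold no support for it. In the reported fit 24.4% of all genes were called in females and 20.1% in males. For the 3 comparisons of the sexes the counts of members stayed at 0. The arrays number 3 per group and each is a pool, which limits what a difference between the sexes could show. Several differences that were not called in the reported fit changed sign, and the cause was not tested. All were small except that of Azin2 in females (1.81), which was called without male vehicle 3 (adjusted p = 0.0494) and without female vehicle 2 (0.0402). For Azin2 the brighter probe was picked anew under quantile normalization and may be its other probe. The Arg2 signals after vehicle were not well above background, so their sex difference has no level behind it. With quantile normalization Gls2 in males was -0.11, Azin2 in females -0.19 and the female minus male Arg2 signal after vehicle -0.14, and in the authors' value table Gls2 in males was -0.14 and that Arg2 difference -0.15. With normexp the female minus male difference after dexamethasone was 0.07 for Arg1 and 0.05 for Slc25a15. With the percentile taken over probes detected on all arrays, Gls2 in males was -0.01 and the Ass1 difference of effects -0.03. With slide as a fixed block that Ass1 value was -0.21, and the female minus male difference after dexamethasone was 0.04 for Otc, 0.22 for Asl and 0.12 for Slc25a15. With slide as a random block the Ass1 value was -0.12 and the Slc25a15 value 0.03. Averaging probes gave 0.04 for Oat in females. Without slide 5, Gls2 in males was -0.07, Oat in males 0.06, the Arg1 sex difference after dexamethasone 0.04 and the Cps1 sex difference after vehicle 0.62. Leaving out single arrays gave ranges of -0.13 to 0.18 for Gls2 in males, -0.46 to 0.10 for Oat in males, -0.26 to 0.03 for Oat in females and -0.08 to 0.12 for the Ass1 difference of effects. For the sex difference after dexamethasone they gave -0.17 to 0.02 for Otc, -0.13 to 0.14 for Arg1 and -0.18 to 0.14 for Slc25a15, and after vehicle -0.46 to 0.56 for Cps1 and -0.05 to 0.38 for Arg2. With the replicate number as a block, 6 members, Arg2 included, were called in females and 6 in males, and 28 of the 54 pathway genes in each sex. Arrays with the same number did not deviate together in every pair (correlations of 0.07, 0.11 and 0.18 in females and 0.01, 0 and 0.52 in males), so the numbers were not taken as pairs, and not every array correlated best with its own number. The arrays numbered 3 do share slide 5, and between vehicle females and vehicle males their correlation was 0.50.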
